A study of Homo sapiens with 4 samples.

Results

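The genes described here encode the nuclear lamina and the inner nuclear membrane proteins that hold it: LMNA, LMNB1, LMNB2, LBR, EMD, TMPO, LEMD3, SUN1, SUN2 and BANF1. These 10 genes were chosen by name, with earlier results of these data known. All 10 had annotated transcripts in the files, out of 19010 genes with a coding transcript. They accounted for 129 of the 393483 transcripts listed, of which 56 were coding and 73 were noncoding. The cells were WI-38, an established line of fibroblasts from human fetal lung that divides only a limited number of times. The 4 groups, with 1 library each, were senescent whole cells at population doubling level (PDL) 60, young whole cells at PDL 21, senescent mitoplasts at PDL 60 and young mitoplasts at PDL 21. Mitoplasts are mitochondria without their outer membrane; nuclei were spun out before the mitochondria were pelleted, and RNase A was applied before and after the mitoplasts were collected. Senescence here was replicative, reached by passage with no drug or transgene, and all 4 groups came from the same line. With 1 library a group, no difference below has a replicate check, the spread within a group is unknown, and no p-value is given.

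The lamina is a meshwork of intermediate filaments, the lamins, on the inner face of the nuclear envelope. LMNA encodes the A-type lamins A and C by alternative splicing, and LMNB1 and LMNB2 encode the B-type lamins, which stay farnesylated and membrane-bound. Inner membrane proteins tie this meshwork to chromatin: LBR binds B-type lamins and heterochromatin protein 1, the LEM-domain proteins emerin (EMD), LAP2 (TMPO) and MAN1 (LEMD3) bind the small chromatin protein BAF (BANF1), and SUN1 and SUN2 connect the lamina through nesprins to the cytoskeleton. Loss of lamin B1 is a widely used marker of senescent fibroblasts.

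Values are FPKM (fragments counted per kilobase of transcript, relative to all mapped fragments), summed over a gene's coding transcripts, over its noncoding ones, or over both (annotated FPKM). A gene was measured in a comparison if it reached 1 FPKM in either library, and was called higher or lower at a log2 ratio of 1 or more in size, taken as log2((A + 1)/(B + 1)), which understates the change of low genes. How deeply each library was sequenced is unknown. In senescent and young whole cells 66.5% and 69.5% of transcripts were listed at 0, and in the senescent and young mitoplast libraries 94.5% and 85.8%. A 0 can be a failed estimate: senescent whole cells had 34 zeros among 1197 coding genes that reached 50 FPKM in the young whole-cell library, senescent mitoplasts had 143 and young mitoplasts 48. Fibroblast markers reached 1 FPKM for 10 of 10 genes in both whole-cell libraries and for 9 of 10 in each mitoplast library, where VIM (senescent) and PDGFRB (young) were listed at 0. Epithelial markers summed to between 3.45 and 5.74 FPKM in the 4 libraries, endothelial markers to between 8.06 and 32.5, and blood markers to at most 0.187 except for 12.4 FPKM of PTPRC in young mitoplasts. The nuclear RNA MALAT1 stood at 507 FPKM in senescent mitoplasts, 2305 in senescent whole cells, 89.0 in young mitoplasts and 1265 in young whole cells. NEAT1 and ACTB were also lower in each mitoplast library than in its whole-cell counterpart. GAPDH was lower in senescent mitoplasts but higher in young mitoplasts. Mitochondrial MT-CO1, MT-CYB and MT-RNR2 were higher in young mitoplasts than in young whole cells. MT-CYB was also higher in senescent mitoplasts. MT-CO1 was listed at 0 in both senescent libraries, and MT-RNR2 in senescent whole cells. In these bulk libraries fewer cells expressing a gene and less RNA per cell cannot be told apart.

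In whole cells more lamina genes were lower than higher in the senescent library. By coding FPKM, 8 members were measured. Of these, 5 were lower (LMNA, EMD, TMPO, SUN1 and BANF1) and 1 was higher (SUN2), where 22.4% of the 9557 coding genes measured were lower and 15.5% higher. Their median log2 ratio was −1.31, beside −0.18 over all coding genes. By annotated FPKM all 10 were measured, with 5 lower (LMNB1, LMNB2, EMD, TMPO and BANF1) and 1 higher (SUN2), where 22.5% of genes were lower and 14.5% higher. EMD, TMPO and BANF1 were lower on both counts. The calls of SUN1 by coding FPKM, LMNB2 by annotated FPKM and SUN2 by both rest on a value listed at 0 in 1 library. SUN1 coding FPKM was 0 in senescent and 81.7 in young whole cells, but its noncoding FPKM was 69.5 in senescent and 27.1 in young ones. The SUN2 sums leave out a transcript of its locus without a symbol, at 11.3 FPKM in senescent and 30.3 FPKM in young whole cells. When the libraries were rescaled to an equal sum of coding FPKM, 3 members were lower by coding FPKM (TMPO, SUN1 and BANF1) and 3 by annotated FPKM (LMNB1, LMNB2 and TMPO), and the share of higher calls among all calls on coding genes went up to 69.0%, beside 40.8% without rescaling.

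**Figure D1:**
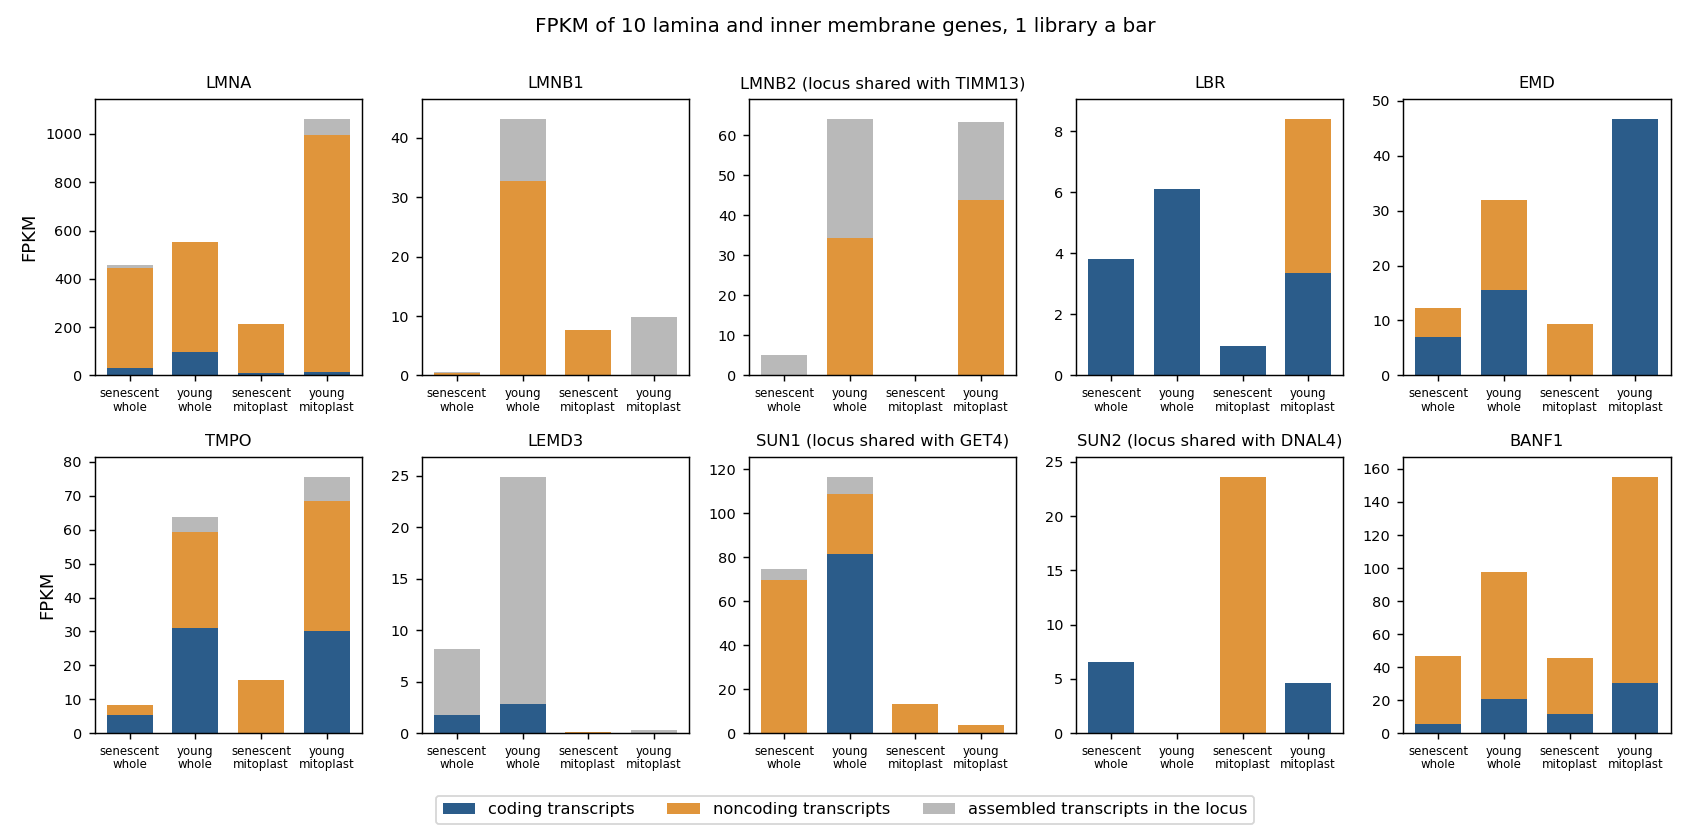
FPKM of each lamina gene (vertical axis, own linear scale per gene) in the 4 libraries, 1 bar a library, stacked into coding, noncoding and assembled transcripts of its locus. For each gene but SUN2 the senescent whole-cell bar is below the young whole-cell bar, and LMNB1 coding FPKM is 0 in all 4 libraries. The transcript without a symbol in the SUN2 locus is not drawn. There are no error bars because each group holds 1 library.

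Among the lamins, LMNA was the most abundant member in whole cells. Its coding FPKM was 31.5 in senescent whole cells, 95.3 in young whole cells, 11.1 in senescent mitoplasts and 13.5 in young mitoplasts. The young whole-cell library was the high one, 3.03-fold above the senescent whole-cell library (log2 ratio −1.57, senescent against young), and both mitoplast libraries lay below both whole-cell libraries. Both coding transcripts above 0 were lower in senescent whole cells: LMNA-206, whose coding sequence of 1992 bases is that of prelamin A, stood at 8.76 FPKM in senescent and 28.3 FPKM in young whole cells, and LMNA-208 at 22.7 FPKM in senescent and 66.9 FPKM in young whole cells. LMNA-207, which encodes lamin C, was listed at 0 in all 4 libraries. Noncoding models carried most of the annotated FPKM of LMNA, and there the difference was small: 414 FPKM in senescent and 457 in young whole cells, so that the annotated ratio was −0.31. That noncoding sum came from different models, with LMNA-214 of 285 nt alone in senescent whole cells at 414 FPKM, and LMNA-219 of 570 nt at 290 with LMNA-210 of 591 nt at 167 in young whole cells. Weighted by transcript length, the annotated ratio of LMNA was −1.34, and rescaled to an equal coding sum it was 0.40.

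LMNB1 had the largest difference between whole-cell libraries among members above 0 in both. Its annotated FPKM was 0.401 in senescent whole cells, 32.7 in young whole cells, 7.73 in senescent mitoplasts and 0 in young mitoplasts. The senescent whole-cell value lay under 1 FPKM, and the log2 ratio to the young one was −4.59, with a range of −6.03 to −4.03 over the alternatives tried. None of this FPKM lay in a transcript annotated as coding: LMNB1-201, the full-length model of 2878 nt with 1758 bases of coding sequence, was at 0 in all 4 libraries, as were the other coding models. In young whole cells 26.8 FPKM lay in LMNB1-204, a processed transcript of 557 nt, and 5.87 in LMNB1-208, a processed transcript of 1801 nt. All 557 bases of LMNB1-204 lie in exons of coding LMNB1 transcripts and 529 of them in coding sequence, so the noncoding label covers bases of the lamin B1 message. Assembled transcripts in the LMNB1 locus added 0.115 FPKM in senescent and 10.4 in young whole cells, with 0 in senescent and 9.78 in young mitoplasts.

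A stretch of LMNB1-204 is printed because this model carried most of the LMNB1 signal of young whole cells: it is 240 bases of GENCODE release 29 (build GRCh38) that lie wholly in lamin B1 coding sequence. Capitals mark the 5 bases on each side of an exon junction.
LMNB1-204, chr5:126777698-126804845, + strand: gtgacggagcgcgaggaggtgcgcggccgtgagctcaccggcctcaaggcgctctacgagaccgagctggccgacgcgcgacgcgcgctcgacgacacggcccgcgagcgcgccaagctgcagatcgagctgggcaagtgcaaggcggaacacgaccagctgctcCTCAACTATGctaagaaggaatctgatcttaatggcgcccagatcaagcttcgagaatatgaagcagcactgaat

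LMNB2 was seen only through 1 noncoding model. LMNB2-202, of 885 nt and wholly in exons of the coding transcript but with only 47 bases of coding sequence, was at 0 in senescent whole cells, 34.4 FPKM in young whole cells, 0 in senescent mitoplasts and 43.8 in young mitoplasts. Both young libraries were above 30 FPKM and both senescent libraries were listed at 0. LMNB2-201, the coding transcript, was at 0 in all 4 libraries. The LMNB2 locus also holds TIMM13, an import chaperone gene of mitochondria, which had the opposite pattern, at 14.3 FPKM in senescent whole cells, 0 in young whole cells, 20.0 in senescent mitoplasts and 0 in young mitoplasts. Assembled transcripts in this shared locus had 4.99 FPKM in senescent and 29.5 FPKM in young whole cells, and 0 in senescent and 19.5 in young mitoplasts; which gene they cover is not known.

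LBR, the lamin B receptor and a sterol reductase, differed little in whole cells. Its coding FPKM was 3.82 in senescent whole cells, 6.10 in young whole cells, 0.967 in senescent mitoplasts and 3.37 in young mitoplasts, and the whole-cell log2 ratio of −0.56 was within the threshold and came to 0.02 under an equal coding sum. The coding FPKM was split over LBR-201 (2.28) and LBR-202 (1.54) in senescent whole cells and was all in LBR-201 in young whole cells. These transcripts carry the same length of coding sequence, 1845 bases. Counting the highest transcript alone, the ratio was −1.11.

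Of the 3 LEM-domain genes, TMPO and EMD were lower in senescent whole cells and LEMD3 was within the threshold. Coding FPKM of TMPO was 5.42 in senescent whole cells, 30.9 in young whole cells, 0 in senescent mitoplasts and 30.2 in young mitoplasts. Both young libraries were near 30 FPKM and the senescent whole-cell library was 5.70-fold below the young one (log2 ratio −2.31). Annotated FPKM was 8.16 in senescent and 59.4 in young whole cells (−2.72). Of its transcripts, TMPO-201 was at 3.27 FPKM in senescent and 16.0 in young whole cells, TMPO-213 at 1.76 FPKM in senescent and 13.3 FPKM in young whole cells, and TMPO-212, whose coding sequence of 1362 bases is that of membrane-bound LAP2 beta, at 0.395 FPKM in senescent and 1.54 FPKM in young whole cells. TMPO-202, which encodes the soluble LAP2 alpha, was at 0 in all 4 libraries. With coding transcripts under 1000 nt left out, which leaves TMPO-212, the ratio was −0.86, under the threshold. At the low FPKM of TMPO-212 the 1 FPKM added to each value understates the change.

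EMD, the gene of emerin that is mutated in an X-linked muscular dystrophy, had one coding transcript above 0, EMD-202. It stood at 7.0 FPKM in senescent whole cells, 15.6 in young whole cells, 0 in senescent mitoplasts and 46.6 in young mitoplasts. The highest value was thus in young mitoplasts and the whole-cell log2 ratio was −1.05, just past the threshold; under the 3 rescalings it was between −0.87 and −0.40. The other EMD signal lay in EMD-204, a retained-intron transcript of 501 nt, at 5.24 FPKM in senescent whole cells, 16.3 in young whole cells, 9.44 in senescent mitoplasts and 0 in young mitoplasts. In whole cells both forms were lower in the senescent library, and in each mitoplast library only 1 of them was above 0.

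EMD-204 keeps bases of an intron, and its 3' end is shown for that reason (GENCODE release 29, build GRCh38). Capitals mark the 79 bases that lie outside every coding exon; the other 422 bases of the transcript lie in emerin coding sequence.
EMD-204, chrX:154380358-154380894, + strand: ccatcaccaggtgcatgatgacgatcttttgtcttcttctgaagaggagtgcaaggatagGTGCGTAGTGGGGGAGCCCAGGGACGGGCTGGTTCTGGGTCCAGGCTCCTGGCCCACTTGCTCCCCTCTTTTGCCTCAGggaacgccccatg

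LEMD3, whose protein MAN1 restrains SMAD signalling, was low throughout, with coding FPKM of 1.77 in senescent whole cells, 2.78 in young whole cells and 0 in both mitoplast libraries (log2 ratio in whole cells −0.45, or 0.04 under an equal coding sum). Assembled transcripts in its locus, which holds no other gene, had 6.36 FPKM in senescent and 22.1 FPKM in young whole cells, and with them the ratio was −1.50.

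BANF1 encodes BAF, which binds DNA and the LEM domain and cross-bridges chromatin as the envelope reforms. Its coding FPKM was 5.59 in senescent whole cells, 20.4 in young whole cells, 11.4 in senescent mitoplasts and 30.1 in young mitoplasts. Each senescent library was below its young counterpart, 3.65-fold in whole cells (log2 ratio −1.70) and 2.65-fold in mitoplasts (−1.33). The coding ratio in whole cells stayed past the threshold, between −1.85 and −1.05, under the alternatives tried. Under the 3 rescalings the annotated ratio in whole cells, −1.06, came to between −0.88 and −0.36, and the coding ratio in mitoplasts to −0.18, 1.40 and −0.50, so neither kept its call. The noncoding model BANF1-203, of 612 nt and wholly in exons of coding transcripts, was higher than the coding transcript in 3 libraries, at 40.8 FPKM in senescent whole cells, 77.2 FPKM in young whole cells and 125 FPKM in young mitoplasts, but stood at 8.99 FPKM in senescent mitoplasts. In that library the model of 251 nt, BANF1-204, had 25.2 FPKM.

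The SUN genes anchor the outward linkers. SUN1 had coding FPKM of 0 in senescent whole cells, 81.7 in young whole cells and 0 in both mitoplast libraries, all of it in SUN1-218, a transcript of 513 nt. Its noncoding FPKM was 69.5 in senescent whole cells, 27.1 in young whole cells, 13.1 in senescent mitoplasts and 3.73 in young mitoplasts. SUN1-222, a transcript of 2975 nt marked for nonsense-mediated decay, was the SUN1 transcript seen in both whole-cell libraries, at 14.4 FPKM in senescent whole cells, 27.1 FPKM in young whole cells, 0 in senescent mitoplasts and 3.73 in young mitoplasts. Its FPKM in senescent whole cells was below that in young ones, with no call made for single transcripts. The coding value, listed at 0 in senescent whole cells, was also below, while the noncoding sum was higher there. The annotated sum, 69.5 FPKM in senescent and 109 in young whole cells, differed by −0.64, within the threshold, or by 0.06 under an equal coding sum. In senescent whole cells the other 55.1 FPKM lay in SUN1-217, a processed transcript of 570 nt of which 471 bases are coding sequence, which was at 0 in the 3 other libraries. SUN2 had coding FPKM of 6.59 in senescent whole cells (SUN2-201), 0 in young whole cells, 0 in senescent mitoplasts and 4.63 in young mitoplasts (SUN2-203, a row that carries its Ensembl identifier in the other libraries' tables alone). Its only other transcript above 0 was SUN2-215, a retained-intron model of 571 nt, at 23.6 FPKM in senescent mitoplasts. The SUN2 locus also holds the gene DNAL4 and a transcript with an Ensembl identifier and no symbol. This transcript had 11.3 FPKM in senescent and 30.3 FPKM in young whole cells. Which gene it belongs to is not known, and the SUN2 sums leave it out. The SUN1 locus also holds GET4.

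**Figure D2:**
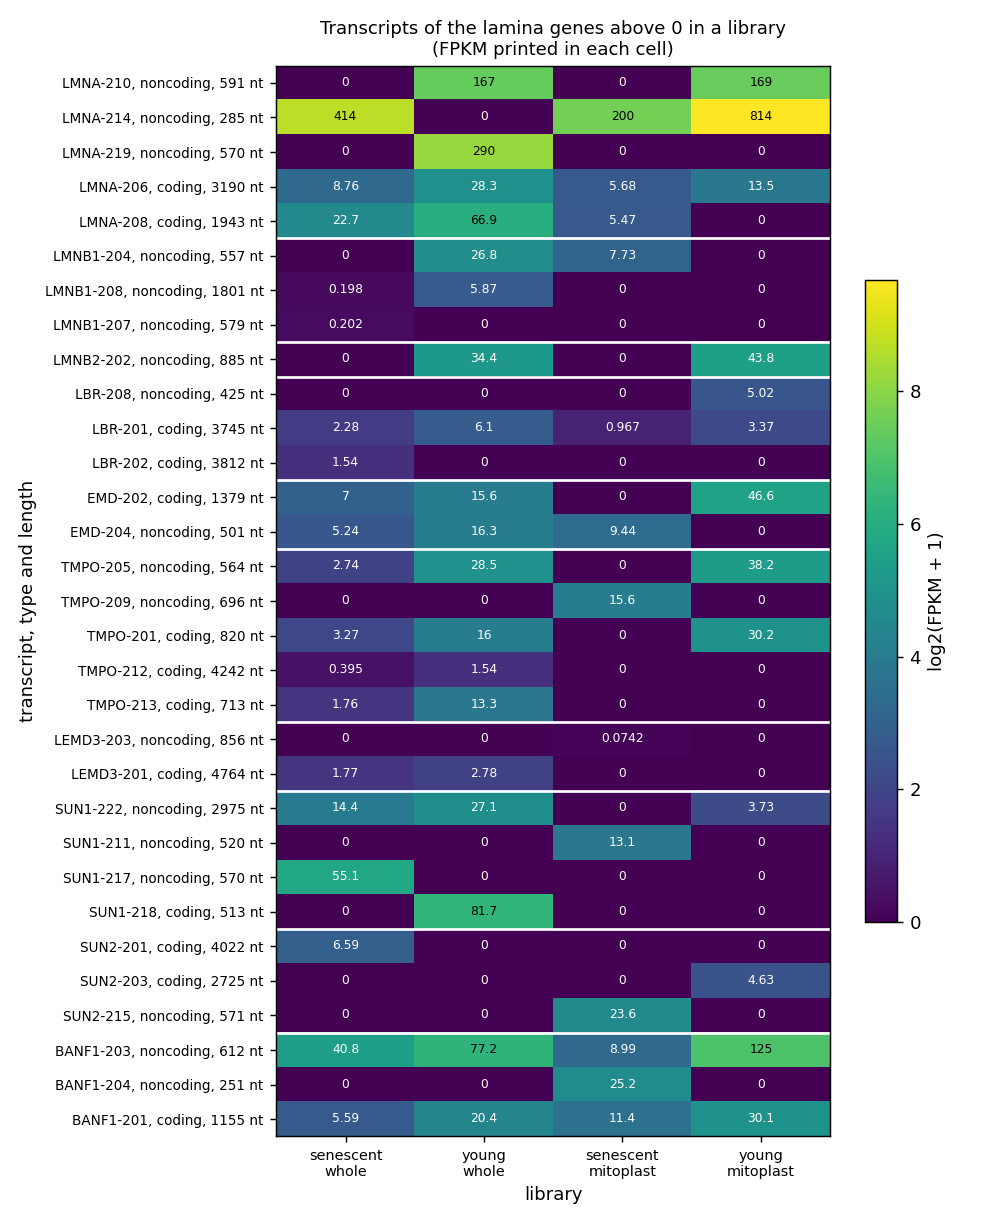
FPKM of the 31 member transcripts above 0 in a library (rows, with type and length) in the 4 libraries (columns), coloured on a log2(FPKM + 1) scale. Rows within a gene differ between libraries: LMNA-214 holds 414 FPKM in senescent whole cells and 0 in young whole cells, where LMNA-219 holds 290.

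Over the 10 genes, 31 of 129 transcripts were above 0 in a library, 13 of them coding and 18 noncoding. The noncoding ones ranged from 251 to 2975 nt, and 16 of the 18 were shorter than 1000 nt. Of the 18, 9 lay wholly in exons of coding transcripts and 11 had 90% or more of their bases there, with the lowest share, 38.1%, in SUN1-222. The share of annotated FPKM in coding transcripts differed widely between genes: for LMNA it was 7.06% in senescent whole cells, 17.3% in young whole cells, 5.28% in senescent mitoplasts and 1.36% in young mitoplasts, and for BANF1 between 12.0% and 25.0%. For LBR it was 100% except in young mitoplasts (40.2%), and for LMNB1 it was 0% wherever the gene was above 0. What part the assignment of fragments between overlapping transcripts has in these shares was not tested.

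**Figure D3:**
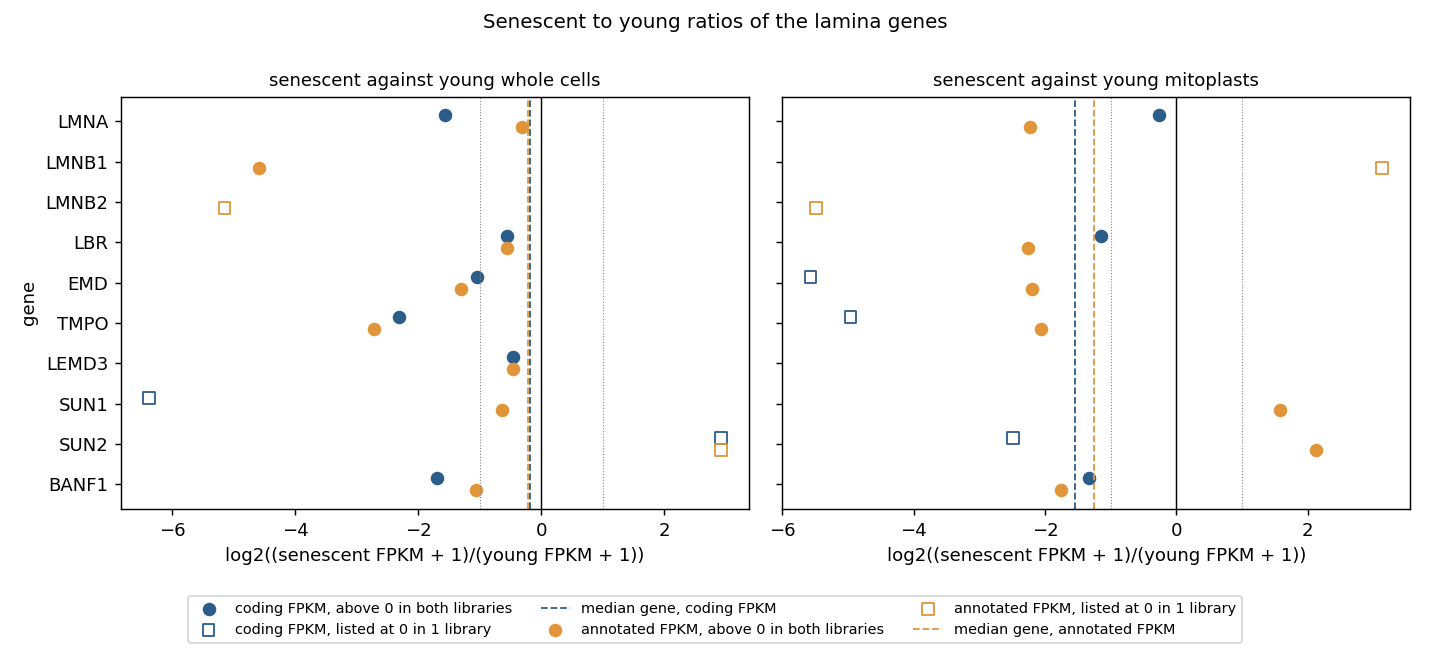
Senescent to young log2 ratio of each lamina gene in whole cells (left) and mitoplasts (right), from coding FPKM (blue) and annotated FPKM (orange); open squares are genes listed at 0 in 1 library, whose place depends on the added 1 FPKM and gives no fold. Dashed lines are the median gene, at −0.18 (coding) in whole cells and −1.55 in mitoplasts. Of the measured members, 7 of 8 lie left of it in whole cells and 3 of 6 in mitoplasts by coding FPKM, and 9 of 10 and 6 of 9 by annotated FPKM, with no test of the difference.

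In mitoplasts, without rescaling, the senescent library was also lower for most members measured, but so was the median gene. By coding FPKM, 6 members were measured, 5 were lower and 0 higher, where 65.0% of 9053 coding genes were lower and 15.6% higher. The members' median was −1.91 and that of all coding genes −1.55. EMD, TMPO and SUN2 were listed at 0 in senescent mitoplasts, while LBR had 0.967 FPKM in senescent and 3.37 in young mitoplasts (log2 ratio −1.15). LMNA differed by −0.26, with 11.1 FPKM in senescent and 13.5 in young mitoplasts. By annotated FPKM, 6 of 9 members were lower and 3 higher, where 56.6% of genes were lower and 20.2% higher. The 3 higher ones were LMNB1, listed at 0 in young mitoplasts, SUN2, with 23.6 FPKM in senescent and 4.63 in young mitoplasts (2.13), and SUN1, with 13.1 in senescent and 3.73 in young mitoplasts (1.58). Assembled transcripts in the LMNB1 locus had 0 FPKM in senescent and 9.78 in young mitoplasts. With assembled transcripts added 2 members were higher, and LMNB1 was not one of them. For LMNA the annotated sum was 211 FPKM in senescent and 996 in young mitoplasts (−2.23), of which LMNA-214 had 200 in senescent and 814 in young mitoplasts. Rescaled to an equal sum of coding FPKM, the annotated ratios of LMNA, EMD, TMPO and BANF1 in mitoplasts turned positive, between 0.55 and 1.09, and the coding ratios of LBR and BANF1 became 0.72 and 1.40. By annotated FPKM 4 of 9 members were then higher and 1 lower. The coding ratio of LMNA became 2.40, past the threshold, and the other rescalings gave it 0.88 and 0.57.

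Senescence ratios in mitoplasts and in whole cells were set side by side as values, with no test of their difference. By coding FPKM, LMNA had a ratio of −0.26 in the mitoplast pair and −1.57 in the whole-cell pair, a difference of 1.31. BANF1 had −1.33 between mitoplasts and −1.70 between whole cells, and LBR had −1.15 between mitoplasts and −0.56 between whole cells. The median coding gene stood at −1.55 between mitoplasts and −0.18 between whole cells. Less that median, LBR was at 0.40 between mitoplasts and −0.38 between whole cells. BANF1 was then at 0.22 between mitoplasts and −1.52 between whole cells, and LMNA at 1.29 between mitoplasts and −1.39 between whole cells. By annotated FPKM the order turned round for LMNA, with −2.23 between mitoplasts and −0.31 between whole cells.

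In young cells the mitoplast library differed from whole cells in both directions. By coding FPKM, 8 members were measured, with 2 higher (EMD and SUN2) and 3 lower (LMNA, LEMD3 and SUN1), where 18.6% of 9995 coding genes were higher and 36.1% lower. EMD was 2.99-fold higher in young mitoplasts (46.6 FPKM) than in young whole cells (15.6), TMPO had 30.2 FPKM in young mitoplasts and 30.9 in young whole cells, and BANF1 had 30.1 in young mitoplasts and 20.4 in young whole cells. LMNA was 7.04-fold lower, with 13.5 FPKM in young mitoplasts and 95.3 in young whole cells. By annotated FPKM, 3 of 10 members were lower (LMNB1, LEMD3 and SUN1) and 1 was higher (SUN2), where 35.0% of genes were lower and 20.9% higher; there LMNA had a log2 ratio of 0.85, the opposite sign.

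In senescent cells the mitoplast library was lower for 6 of 7 members measured by coding FPKM and higher for 0, where 70.5% of 9332 coding genes were lower and 13.3% higher. LMNA had 11.1 FPKM in senescent mitoplasts and 31.5 in senescent whole cells (log2 ratio −1.42), and LBR had 0.967 in senescent mitoplasts and 3.82 in senescent whole cells (−1.29). BANF1 was the exception, with 11.4 FPKM in senescent mitoplasts and 5.59 in senescent whole cells (0.91, within the threshold). These coding calls depended on scaling. Under each rescaling LMNA and LBR were within the threshold and BANF1 was past it, with 4 of 7 members lower and 1 higher. An equal coding sum gave LMNA −0.07, LBR −0.43 and BANF1 2.29. An equal annotated sum gave LMNA −0.42, LBR −0.64 and BANF1 1.88. The median of ratios gave LBR −0.34 and BANF1 2.27. EMD, TMPO, LEMD3 and SUN2 had no coding FPKM in senescent mitoplasts. By annotated FPKM, 4 of 9 were lower and 2 higher, where 60.9% of genes were lower and 18.5% higher. This balance turned round with scaling, with 5 higher and 1 lower under the median of ratios and under the equal coding sum, and 4 higher and 2 lower under an equal annotated sum. Without rescaling, LMNB1 was one of the 2, at 7.73 FPKM in senescent mitoplasts and 0.401 in senescent whole cells, and SUN2 the other, at 23.6 in senescent mitoplasts and 6.59 in senescent whole cells. These comparisons share libraries with those between senescent and young, so their counts are not independent.

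Among the members the order of coding FPKM changed with the library. In senescent whole cells LMNA led at 31.5, above 91.7% of coding genes, and EMD (7.0), SUN2 (6.59), BANF1 (5.59) and TMPO (5.42) followed close together. In young whole cells LMNA led at 95.3, above 96.5% of coding genes, ahead of SUN1 (81.7), TMPO (30.9) and BANF1 (20.4). In senescent mitoplasts BANF1 (11.4) and LMNA (11.1) were the only members above 1 FPKM. In young mitoplasts EMD (46.6) led, ahead of TMPO (30.2), BANF1 (30.1) and LMNA (13.5). With no replicates, whether neighbours in these orders differ beyond their spread is unknown.

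**Figure D4:**
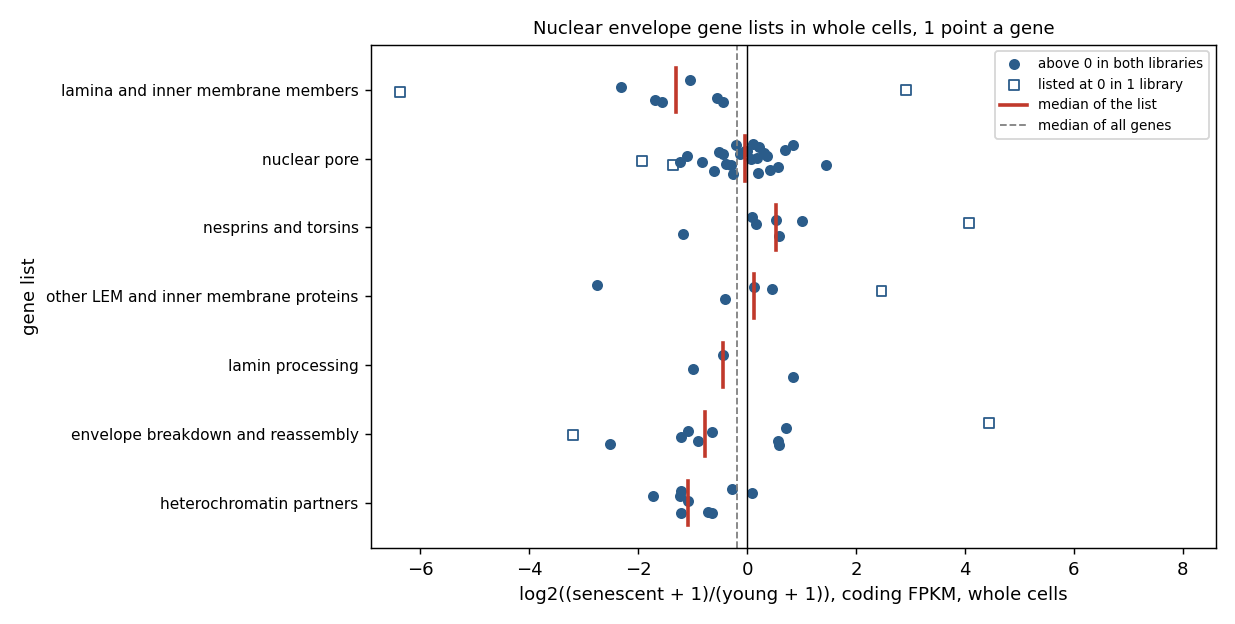
Log2 ratio of coding FPKM, senescent against young whole cells (horizontal axis), for the lamina genes and 6 lists of envelope genes, 1 point a measured gene; red bars are list medians and the dashed line the median of all coding genes (−0.18). The heterochromatin partners (median −1.08) and the lamina genes (−1.31) lie furthest left, and nuclear pore genes centre on −0.04.

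Around the lamina, genes of the nuclear pore, the channel through the same envelope, stood near the median gene in whole cells. Of 27 measured nuclear pore genes 4 were lower and 1 higher in senescent whole cells, with a median of −0.04. These counts, and those of the lists that follow, stand beside 22.4% lower and 15.5% higher over all coding genes. The lists, too, were chosen with earlier results of these data known. NUP50, a mobile pore protein, was the higher one, at 14 FPKM in senescent and 4.50 FPKM in young whole cells (1.45), and NUP160, of the outer ring, was at 2.25 FPKM in senescent and 6.66 FPKM in young whole cells (−1.24). Of 7 nesprins and torsins, the partners of SUN proteins and the ATPases of the perinuclear space, 2 were higher and 1 lower (median 0.53), with TOR1A at 21.3 FPKM in senescent and 10.1 in young whole cells (1.00). By annotated FPKM 4 of the 7 were higher and 0 lower (median 1.00), where 14.5% of genes were higher and 22.5% lower (median −0.21). Of the lists, only this one is also counted by annotated FPKM here. The lower one by coding FPKM was SYNE2, the gene of nesprin-2, at 0.246 FPKM in senescent and 1.83 FPKM in young whole cells (−1.18); its annotated FPKM was 25.8 in senescent whole cells against 2.48 in young whole cells (2.95). Of 5 other LEM and inner membrane proteins 1 was higher and 1 lower (median 0.11); the lower one, PRR14, a tether of heterochromatin to the lamina, was at 0.990 FPKM in senescent and 12.4 in young whole cells (−2.75). Of 3 lamin-processing genes 0 passed the threshold in either direction (median −0.44), and ZMPSTE24, the protease that trims prelamin A, was at 22.1 FPKM in senescent and 11.9 in young whole cells (0.84).

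The last lists hold genes that work on the envelope at mitosis and the chromatin partners of the lamina. Of 10 measured genes of envelope breakdown and reassembly 4 were lower and 1 higher (median −0.77); the small GTPase RAN was at 13.2 FPKM in senescent and 80.2 FPKM in young whole cells (−2.52), and the import receptor KPNB1 at 32.7 FPKM in senescent and 70.3 FPKM in young whole cells (−1.08). The higher one was PPP2R1A, a scaffold subunit of protein phosphatase 2A, at 20.6 FPKM in senescent whole cells and listed at 0 in young ones. PPP2R2A, VRK2 and LPIN1 had ratios above 0 within the threshold, with PPP2R2A at 225 FPKM in senescent and 152 FPKM in young whole cells. The values of these 4 genes were singled out after they were seen. Of 9 heterochromatin partners 5 were lower and 0 higher (median −1.08), where 22.4% of coding genes were lower and 15.5% higher. CBX5, heterochromatin protein 1 alpha, was at 5.31 FPKM in senescent and 19.9 FPKM in young whole cells (−1.73), and CBX1, heterochromatin protein 1 beta, at 10.7 FPKM in senescent and 26.3 FPKM in young whole cells (−1.22). In mitoplasts 8 of 10 heterochromatin partners and 17 of 25 nuclear pore genes were lower in the senescent library, beside the 65.0% of all coding genes given above.

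Promoters of the members were searched for 4 boxes known from genes of the cell cycle, in windows of 250 bases before and 50 after each annotated start (RefSeq, build GRCh38.p14), on either strand. Of the 10 genes 9 had an entry. The letters CCAAT were found in 6 of the 9 genes (LMNA, LMNB1, TMPO, LEMD3, EMD and SUN2) and, since genes can have several starts, in 7 of their 15 windows, beside 34.6% of all 35116 promoter windows. TTTCCCGC, a form of the E2F site, was found in LMNA and LEMD3, in 2 of the 15 windows, and in 1.63% of all windows. TTTGAA was found in LMNB2 and SUN2, in 2 of the 15 windows, and in 15.2% of all windows, and TTTGGCGC in 0 of the 9 genes and in 0.652% of windows. A match is a run of letters, not a shown binding site.

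The 250 bases before the start are printed for LMNB1 and TMPO, the members above 0 in both whole-cell libraries with the largest differences, and for LMNA and LEMD3, which hold the E2F-type letters. Capitals mark CCAAT, read as ATTGG where it lies on the other strand, and TTTCCCGC.
LMNB1 promoter, chr5:126776886-126777135, + strand: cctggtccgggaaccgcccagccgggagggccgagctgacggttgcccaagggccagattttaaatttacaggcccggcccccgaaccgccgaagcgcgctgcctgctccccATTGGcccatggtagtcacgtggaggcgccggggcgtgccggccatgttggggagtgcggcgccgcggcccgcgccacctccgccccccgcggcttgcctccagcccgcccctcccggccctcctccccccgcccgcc
TMPO promoter, chr12:98515323-98515572, + strand: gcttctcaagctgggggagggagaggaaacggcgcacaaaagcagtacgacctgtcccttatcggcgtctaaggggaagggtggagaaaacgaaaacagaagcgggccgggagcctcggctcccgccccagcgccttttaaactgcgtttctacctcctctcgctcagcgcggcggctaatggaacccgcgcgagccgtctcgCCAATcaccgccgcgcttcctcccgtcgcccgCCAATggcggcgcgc
LMNA promoter, chr1:156082323-156082572, + strand: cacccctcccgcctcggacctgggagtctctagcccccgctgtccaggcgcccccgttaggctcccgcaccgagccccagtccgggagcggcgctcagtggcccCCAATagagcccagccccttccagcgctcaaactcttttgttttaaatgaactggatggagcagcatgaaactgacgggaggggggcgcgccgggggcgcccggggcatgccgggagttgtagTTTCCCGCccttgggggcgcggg
LEMD3 promoter, chr12:65169333-65169582, + strand: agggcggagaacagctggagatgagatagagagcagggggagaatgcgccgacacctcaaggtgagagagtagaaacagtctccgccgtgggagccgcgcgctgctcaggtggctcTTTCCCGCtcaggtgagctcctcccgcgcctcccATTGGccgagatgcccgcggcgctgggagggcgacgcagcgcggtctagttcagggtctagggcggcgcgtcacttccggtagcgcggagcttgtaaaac
In LMNB1 the CCAAT letters begin 138 bases before the start, on the opposite strand. TMPO holds them at 47 and 15 bases before its start. In LMNA the TTTCCCGC letters begin 23 bases before the start, and in LEMD3 they begin 134 bases before it. LMNA and LEMD3 had coding log2 ratios of −1.57 and −0.45 in whole cells. LBR and BANF1, whose windows hold none of the 4 boxes, had −0.56 and −1.70. Among the other genes with CCAAT, TMPO had −2.31, EMD −1.05 and SUN2, listed at 0 in young whole cells, 2.92. LMNB1 and LMNB2 had no coding FPKM. Whether a box has a part in any of these ratios was not tested.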

How the data were processed

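The authors deposited 1 table per library with FPKM values for 393483 transcripts, per the file headers; build hg19 and the tools Cufflinks 2.2.1, TopHat2 2.0.14 and Cuffdiff come from the submitters' processing notes, without role or order. Libraries were prepared with Illumina's TruSeq RNA kit, per the labels. The strand setting, annotation release and depth were not given in those sources, so overlapping genes cannot be told apart. Of 185591 transcripts with an Ensembl identifier, 93.0% were given a symbol through GENCODE release 29 and a table of current symbols, which also gave types, lengths and exons but no hg19 coordinates. FPKM was summed per gene with Python 3.11.15 and pandas 2.3.3; ratios used a pseudocount of 1 FPKM, and the code was tested on simulated data. All 10 members are named, and up to 3 genes per list with the largest ratios above 0 in both libraries. Members and lists were chosen with earlier results of these data known. Alternatives covered pseudocount, filter, scaling and which transcripts were summed. Protein sequences were not used here.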

Additional observations from a re-analysis of the deposited data

Results flagged for a closer look

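Directions of 3 genes were opposite in the paired comparisons, for SUN2 and EMD by coding FPKM and for LMNB1 by annotated FPKM. Each rests on 1 library a group and the difference was not tested. By annotated FPKM SUN2 was higher in each comparison, with log2 ratios between 1.69 and 2.92 and young whole cells listed at 0. EMD was within the threshold by annotated FPKM in both fraction pairs (0.53 in young and −0.34 in senescent cells). SUN2 coding FPKM was 6.59 in senescent and 0 in young whole cells, but 0 in senescent and 4.63 in young mitoplasts. Set by fraction, the same values ran the other way: 4.63 in young mitoplasts against 0 in young whole cells, and 0 in senescent mitoplasts against 6.59 in senescent whole cells. These SUN2 values leave out the transcript without a symbol in its locus, at 11.3 FPKM in senescent and 30.3 in young whole cells. EMD coding FPKM was 46.6 in young mitoplasts and 15.6 in young whole cells, but 0 in senescent mitoplasts and 7.0 in senescent whole cells. LMNB1 annotated FPKM was 7.73 in senescent mitoplasts and 0 in young mitoplasts, but 0.401 in senescent and 32.7 in young whole cells. Assembled transcripts in its locus, left out of these values, had 0 FPKM in senescent and 9.78 in young mitoplasts. With them the senescent mitoplast library no longer stood above the young one. By fraction, LMNB1 annotated FPKM was higher in senescent mitoplasts than in senescent whole cells and lower in young mitoplasts than in young whole cells.

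Assembled transcripts, which the coding sums leave out, were above the young whole-cell level in these loci. In the LMNA locus they had 12.4 FPKM in senescent whole cells and 64.6 in young mitoplasts, against 0 in young whole cells. In the TMPO locus they had 7.14 FPKM in young mitoplasts, against 4.25 in young whole cells.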

How the results depend on the processing

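No paired analysis was possible because each group holds 1 library, and for that reason none could be left out. Of the coding genes, 1478 were higher and 2142 lower in senescent against young whole cells, 1411 and 5884 in senescent against young mitoplasts, 1857 and 3612 in young mitoplasts against whole cells, and 1242 and 6576 in senescent mitoplasts against whole cells. In that order of comparisons, a filter of 5 FPKM, which tests fewer genes, gave 949, 937, 1016 and 790 higher, and 3455 and 4219 lower in the comparisons with senescent mitoplasts. An equal coding sum gave 2623 higher and 1181 lower in whole cells, 3555 and 3157 in mitoplasts, 930 higher in young and 2029 higher in senescent mitoplasts against whole cells. It moved the whole-cell median gene to 0.41, beside −0.18. A median of ratios gave 2180 higher between mitoplasts and 2040 in senescent mitoplasts against whole cells. Noncoding transcripts added gave 2218 and 1986 for those comparisons, and coding transcripts of 1000 nt or more gave 754 and 650, with 1200 in young mitoplasts against whole cells.

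Members lower by coding FPKM numbered 3, beside 5, in whole cells under an equal coding sum and with transcripts of 1000 nt or more, and in mitoplasts with the 5 FPKM filter and under each of the 3 rescalings. By annotated FPKM the equal coding sum gave 3 beside 5 in whole cells, 1 beside 6 between mitoplasts and 1 beside 4 in senescent mitoplasts against whole cells. In this last comparison the median of ratios also gave 1, and the 5 FPKM filter, an equal annotated sum and noncoding transcripts alone gave 2; members higher in it numbered 5, 5 and 4 under the median of ratios, the equal coding sum and the equal annotated sum, beside 2.

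Signs turned round in the cases that follow and in some other uncalled ratios, and the cause was not tested. Between mitoplasts coding LMNA, −0.26, was 2.40 under the equal coding sum, 0.88 under the median of ratios and 0.57 under the equal annotated sum. There an equal coding sum gave LBR 0.72 and BANF1 1.40 by coding FPKM, and LMNA 0.64, EMD 0.55, TMPO 0.73 and BANF1 1.09 by annotated FPKM; weighting by length gave SUN1 −0.63. In young mitoplasts against whole cells LMNA was 0.85 with noncoding and 0.94 with assembled transcripts added. In senescent mitoplasts against whole cells annotated LMNA was 0.42 under the median of ratios and 0.35 under the equal coding sum, and SUN2 −0.93 weighted by length. Annotated BANF1 and EMD, slightly below 0 there without rescaling, gave 5 rescaled values that were positive and past the threshold. In whole cells uncalled ratios turned positive for annotated LMNA (0.40), LBR (0.02), LEMD3 (0.04) and annotated SUN1 (0.06) under the equal coding sum. From noncoding transcripts alone the SUN1 ratio was 1.33. Among members above 0 in both whole-cell libraries no called ratio changed sign. Ratios with a 0 in 1 library were not part of this check, such as the lower call of SUN1 by coding FPKM.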
